A study of Mus musculus with 32 samples.

Results

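RNA was sequenced from cortical neuron cultures of wild type C57BL/6 mice that had been exposed to the microRNA miR-92a-1-5p for 5 d or left untreated for the same time, and the 2 groups were compared gene by gene. The comparison holds 8 of the 32 libraries of the series, namely 4 biological replicates of the untreated condition and 4 of the miR-92a-1-5p condition. The cultures came from the embryonic forebrain, were kept in a serum-free neuronal medium, and received miR-92a-1-5p from outside as a synthetic oligoribonucleotide with a stabilised backbone. The other 2 groups of 5 d, each with 4 libraries, were fitted together with these 8 libraries and entered the estimate of the spread. They were also used to show where the miR-92a-1-5p condition differed from other oligoribonucleotides. One had received miR-124-5p and the other Mut.oligo, a control oligoribonucleotide derived from the microRNA let-7b with an altered sequence. The untreated cultures had received no oligoribonucleotide, so that the comparison covers the sequence of miR-92a-1-5p together with the presence of any such molecule.

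The libraries carry the label of an experiment batch, and the batches are distributed unequally over the groups. Untreated replicates 1 to 4 came from batches 3, 9, 11, and 12, and miR-92a-1-5p replicates 1 to 4 from batches 2, 3, 10, and 12. Both groups are therefore present only in batch 3 and in batch 12. Batch 2 holds a library of miR-92a-1-5p and one of miR-124-5p but no untreated and no Mut.oligo library, and batch 10 holds no untreated library. The miR-124-5p replicates came from the same 4 batches as those of miR-92a-1-5p, and the Mut.oligo replicates from batches 3, 9, 10, and 12. With the batch as a covariate, untreated replicate 2 and miR-92a-1-5p replicates 1 and 3 entered the comparison only through libraries of these other groups.

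miR-92a-1-5p is the strand from the 5′ arm of the miR-92a-1 hairpin, which is encoded in the miR-17-92 cluster. Inside a cell, microRNAs guide Argonaute proteins to messenger RNAs, mostly through base pairing of the seed region with the 3′ UTR of the target. Outside of cells, single-stranded RNA that reaches the endosome can be sensed by Toll-like receptor 7 (TLR7), which signals through the adaptor MyD88 to NF-κB and cytokine genes. Cultures from embryonic forebrain consist mainly of postmitotic neurons, but they also carry dividing progenitors, precursors of oligodendrocytes and astrocytes, and a few cells of vessels, meninges, and microglia. Genes of DNA replication and mitosis are expressed mainly in the dividing fraction of such a culture, whereas several regulators of the G1 phase, such as D-type cyclins, CDK inhibitors, and the Rb family, are also expressed in postmitotic neurons. Cyclin D1 binds CDK4 and CDK6 in the G1 phase, the MCM helicase and its loading factors act in S phase, and cyclin A2, the Aurora kinases, and the mitotic kinesins act from S phase to cytokinesis.

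The mature sequence is shown with its seed, bases 2 to 8, in capitals, since the search for matching sites described further below rests on it. It is given as in RefSeq for GRCm38.p6, on the plus strand of chr14:115044437-115044459 in the gene Mir92-1. The strand from the other arm of the same hairpin follows because it has a different seed.
mmu-miR-92a-1-5p: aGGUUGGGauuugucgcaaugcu
mmu-miR-92a-3p: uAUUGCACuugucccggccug

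The cultures carried the neuronal markers expected from their label. The summed level of 14 pan-neuronal genes was 9995 to 13780 CPM (the count of a gene scaled to the library total) in the untreated libraries and 11083 to 13059 CPM in the miR-92a-1-5p libraries. The oligodendrocyte lineage (21 genes, 242 to 294 CPM untreated and 143 to 258 CPM exposed), endothelial cells (20 genes, 18.7 to 25.6 and 16.3 to 17.7 CPM), and microglia (16 genes, 42.7 to 71.3 and 44.6 to 60.5 CPM) were present at low levels. The 15 genes of astrocytes and radial glia were not low, with a summed level of 3350 to 5202 CPM untreated and 3035 to 4366 CPM exposed. The 8 libraries held 38092275 to 60518243 counts on genes, and a count of 3 corresponded to 0.0788 CPM in the smallest of them. Mitochondrial genes took 1.18% to 1.72% of the counts in untreated libraries and 1.27% to 2.42% in exposed libraries. As RNA of whole cultures was sequenced, fewer cells of a type and less RNA per cell cannot be told apart in any of the results.

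After 5 d with miR-92a-1-5p, genes of the oligodendrocyte lineage and of the cell cycle were at lower levels than in untreated cultures. Neuronal genes did not pass the test in either direction. Genes of the first 2 kinds had negative medians for Mut.oligo and miR-124-5p as well, as given further below. With the experiment batch as a covariate, 67 of 19333 genes were downregulated (0.347% of the genes tested) and 1 gene, Spp1, was upregulated (0.00517%). The 67 genes had a median log2 fold change of -0.80, and the median over all genes tested was -0.01. The genes with the smallest p were Olig2, Kdr, Pclaf, Pdgfra, and Olig1. A gene was called at an adjusted p under 0.05 (quasi-likelihood test of edgeR, adjusted after Benjamini-Hochberg over the genes tested) and a log2 fold change beyond 0.5 in either direction. Without any covariate, Ccnd1 was the only gene called (0.00517%), with a log2 fold change of -0.65 ± 0.09 (SE, n = 4 and 4, adjusted p = 0.0483). All 67 genes had negative log2 fold changes in this fit as well, with a median of -0.73, and 54 of them had an unadjusted p under 0.05. Over all genes, 702 had an unadjusted p under 0.05 without the covariate (507 lower and 195 higher) and 2082 with it (1205 lower and 877 higher). The median standard error was 0.14 without the covariate and 0.11 with it, on the log2 scale.

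**Figure D1:**
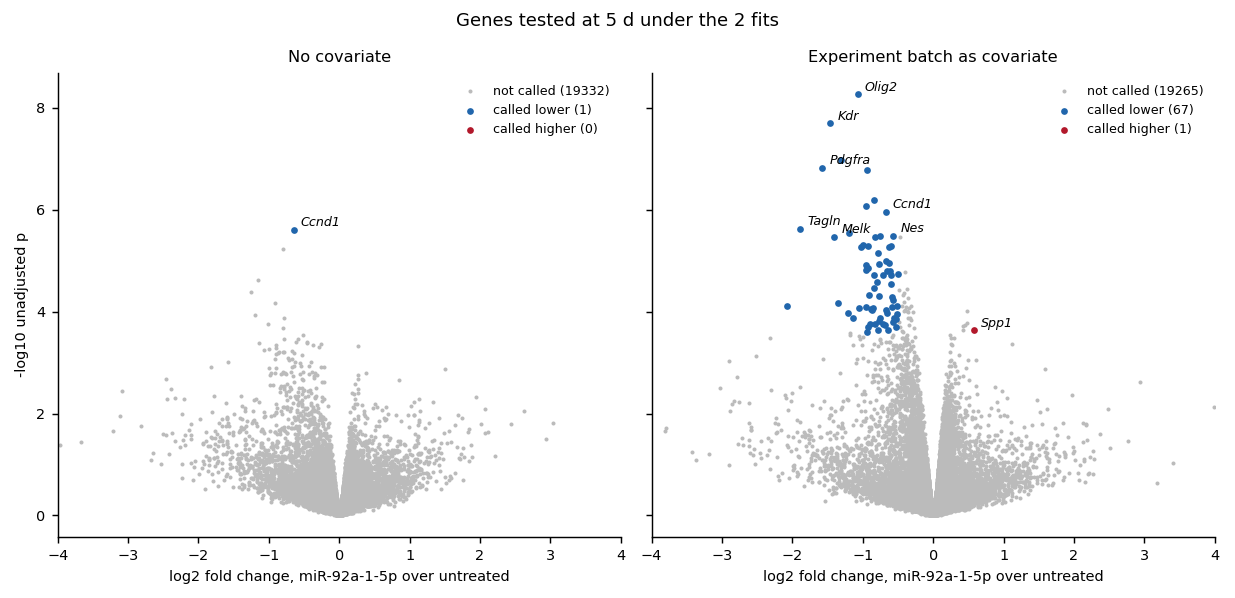
Log2 fold change of miR-92a-1-5p over untreated at 5 d (horizontal axis) against -log10 of the unadjusted p (vertical axis) for the 19333 genes tested, without covariate (left) and with the experiment batch as covariate (right); 5 genes lie outside the plotted range. Ccnd1 is the only called gene on the left, and 67 genes called lower (blue) face 1 called higher (red) on the right.

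The number of genes called depended on single libraries. With the batch covariate, 8 genes were called lower without untreated replicate 1, 40 without untreated replicate 2, 66 without untreated replicate 3, and 29 without untreated replicate 4. Leaving out miR-92a-1-5p replicate 1, 2, 3, or 4 gave 132, 44, 37, and 23 genes. Untreated replicate 3 was the only library of batch 11, so with the batch covariate it added nothing to the contrast. The contrast thus rested on untreated replicates 1, 2, and 4, and by design little could change without replicate 3. Without miR-92a-1-5p replicate 1, miR-124-5p replicate 1 was alone in batch 2, so that this fit lost the whole batch for the contrast. All 67 genes kept negative log2 fold changes in each of these 8 fits, and 7 were called in each of them (Olig2, Kdr, Pclaf, Pdgfra, Olig1, Col4a6, and Ccna2). Without the covariate, 27 genes were called lower when miR-92a-1-5p replicate 1 was left out, and none was called when any other of the 8 libraries was left out.

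Olig2 and Olig1 encode the transcription factors that specify the oligodendrocyte lineage. Olig2 was at 32.7, 28.4, 29.9, and 26.9 CPM in untreated replicates 1 to 4 and at 23.4, 14.1, 11.9, and 12.8 CPM in miR-92a-1-5p replicates 1 to 4. All exposed libraries were below all untreated libraries, and replicate 1 was the highest of the exposed ones. The log2 fold change with the batch covariate was -1.07 ± 0.08 (SE, adjusted p = 0.000104, edgeR), and without covariate it was -0.91 ± 0.17 (adjusted p = 0.260). The neighbouring gene Olig1 was at 78.2 to 98.4 CPM in untreated and at 35.8 to 65.9 CPM in exposed libraries (-0.94 ± 0.09, adjusted p = 0.000636, edgeR).

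Pdgfra, the receptor for platelet-derived growth factor that marks oligodendrocyte precursors and is also found on fibroblasts, showed the clearest split among exposed libraries. It was at 30.7, 34.96, 35.7, and 24.6 CPM in the untreated libraries and at 31.2, 7.62, 6.81, and 8.15 CPM in miR-92a-1-5p replicates 1 to 4. Replicate 1 thus lay within the untreated range, while the other three were below every untreated library. With the batch covariate the log2 fold change was -1.58 ± 0.15 (SE, adjusted p = 0.000636, edgeR), and without covariate it was -1.22 ± 0.41 (adjusted p = 0.912). Sox10, a factor required for oligodendrocyte differentiation and named here after its values were seen, had the same arrangement, with 3.88 CPM in replicate 1 and 0.757 to 1.14 CPM in the other exposed libraries against 2.17 to 4.07 CPM untreated (-1.36 ± 0.23, adjusted p = 0.0272, edgeR). Of the 18 tested members of the lineage list, 5 were downregulated and none was upregulated, with a median log2 fold change of -0.47. The 5 were Olig1, Olig2, Pdgfra, Sox10, and Sox8, a factor related to Sox10. Without untreated replicate 1, the first 3 of these were called. Mbp, the myelin basic protein of mature oligodendrocytes, which was also chosen after its values were seen, did not pass, with 20.3 to 23.2 CPM untreated and 20.5 to 25.02 CPM exposed (0.10 ± 0.06, adjusted p = 0.587, edgeR), and the groups overlapped.

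**Figure D2:**
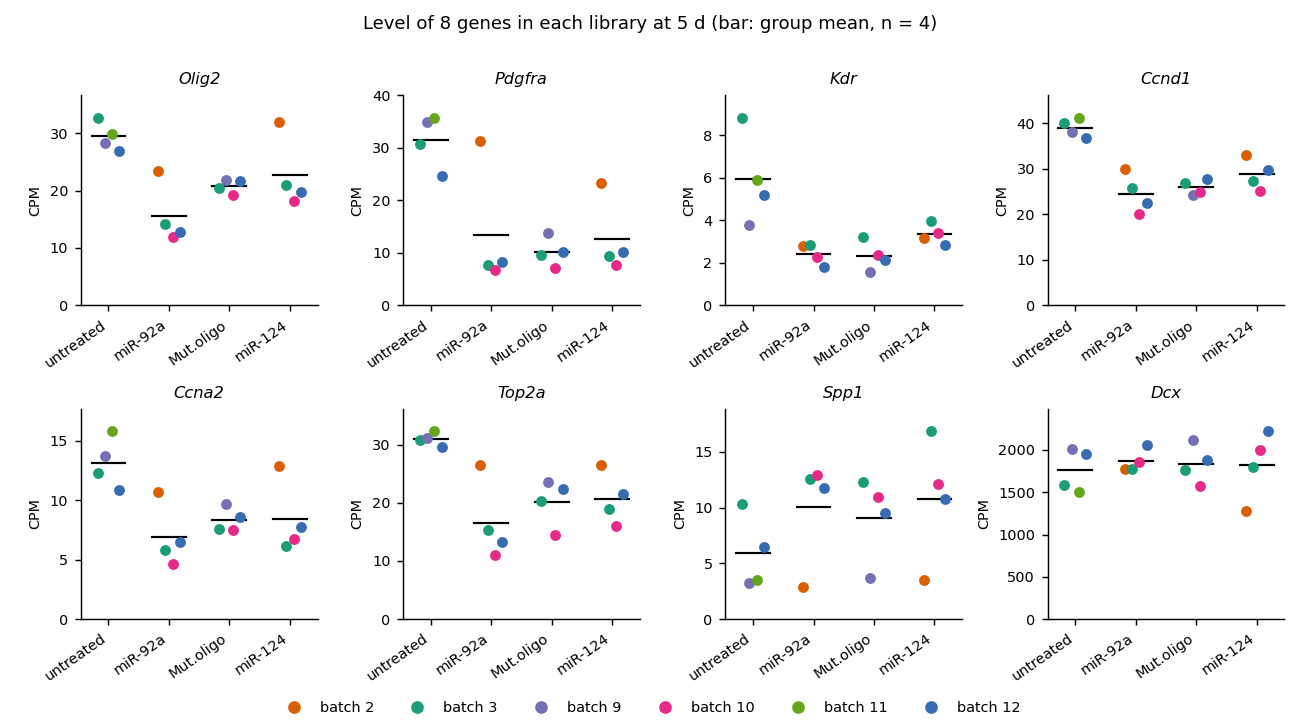
Level in CPM (vertical axis, from 0) of 8 genes in each of the 16 libraries of 5 d, by condition (horizontal axis, 4 libraries each), coloured by experiment batch, with a bar at the group mean. For Olig2, Kdr, Ccnd1, Ccna2, and Top2a all miR-92a-1-5p libraries lie below all untreated ones, whereas for Pdgfra the miR-92a-1-5p library of batch 2 stays at 31.2 CPM.

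Genes of the G2 and M phases formed the largest group among the downregulated genes. Of 41 tested members of this list, which covers mitotic cyclins, kinases, kinesins, and kinetochore proteins, 19 were downregulated and none was upregulated. All 41 had negative log2 fold changes, between -1.40 and -0.30 with a median of -0.74. In 24 of the 41 genes the exposed libraries did not overlap with the untreated ones, compared with 1.78% of all genes tested that were lower without overlap and 0.781% that were higher. The summed level of the list was 261 to 289 CPM in untreated libraries, 240 CPM in miR-92a-1-5p replicate 1, and 128 to 147 CPM in replicates 2 to 4. Without untreated replicate 1, 1 member was called instead of 19.

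Ccna2, encoding cyclin A2, was at 12.3, 13.7, 15.8, and 10.8 CPM in the untreated libraries and at 10.7, 5.79, 4.66, and 6.46 CPM in the exposed libraries. The groups were separated only narrowly, by miR-92a-1-5p replicate 1 and untreated replicate 4. The log2 fold change was -0.95 ± 0.11 (SE, adjusted p = 0.00228, edgeR with batch covariate). Top2a, the DNA topoisomerase that untangles chromosomes before division, was at 30.9, 31.2, 32.3, and 29.7 CPM in the untreated and at 26.5, 15.4, 11.1, and 13.2 CPM in the exposed libraries. It was downregulated in the batch fit (-0.93 ± 0.12, adjusted p = 0.00525, edgeR). Melk (-1.40 ± 0.18), Dlgap5 (-1.20 ± 0.15), Pbk (-0.83 ± 0.11), and Kif23 (-0.78 ± 0.11) were downregulated as well, the first and the third encoding mitotic kinases, Dlgap5 a spindle protein, and Kif23 a kinesin of cytokinesis. Foxm1, the transcription factor that drives many genes of this phase, was at 8.31 to 9.37 CPM untreated and at 4.11 to 7.04 CPM exposed (-0.63 ± 0.08, adjusted p = 0.00525, edgeR). Mki67, which encodes the proliferation marker Ki-67 and was named after its values were seen, was at 23.2 to 27.4 CPM in the untreated libraries, at 23.2 CPM in miR-92a-1-5p replicate 1, and at 8.36 to 10.3 CPM in replicates 2 to 4 (-1.14 ± 0.21, adjusted p = 0.0348, edgeR).

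Members of the S phase list were less far from the untreated level. Of 30 tested genes, 4 were downregulated, none was upregulated, and 29 had negative log2 fold changes, with a median of -0.38. Without untreated replicate 1, 1 of them was called. Pclaf, which encodes a protein bound to the replication clamp PCNA, was at 7.14, 6.32, 8.54, and 6.41 CPM in the untreated and at 5.07, 3.00, 1.84, and 2.38 CPM in the exposed libraries (-1.30 ± 0.12, adjusted p = 0.000636, edgeR). No exposed library reached the untreated range. Uhrf1, which maintains DNA methylation behind the replication fork (-0.99 ± 0.13), and Mcm5, a subunit of the replicative helicase (-0.71 ± 0.11), were downregulated too.

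In the G1 list, 3 of 21 tested genes were downregulated, and 0 were without untreated replicate 1. Ccnd1, which encodes cyclin D1, was at 40.0, 38.0, 41.3, and 36.8 CPM in the untreated libraries and at 29.9, 25.8, 20.1, and 22.4 CPM in the exposed libraries. Every exposed library was below every untreated one, and the spread within the untreated group was 2.00 CPM (SD, n = 4). Cdk6, the kinase partner of D-type cyclins (-0.85 ± 0.13, adjusted p = 0.0107, edgeR), and Cdkn2c, an inhibitor of CDK4 and CDK6 (-0.71 ± 0.14, adjusted p = 0.0405, edgeR), were also downregulated. The median of the G1 list was -0.22, and 5 of its 21 members had positive log2 fold changes.

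**Figure D3:**
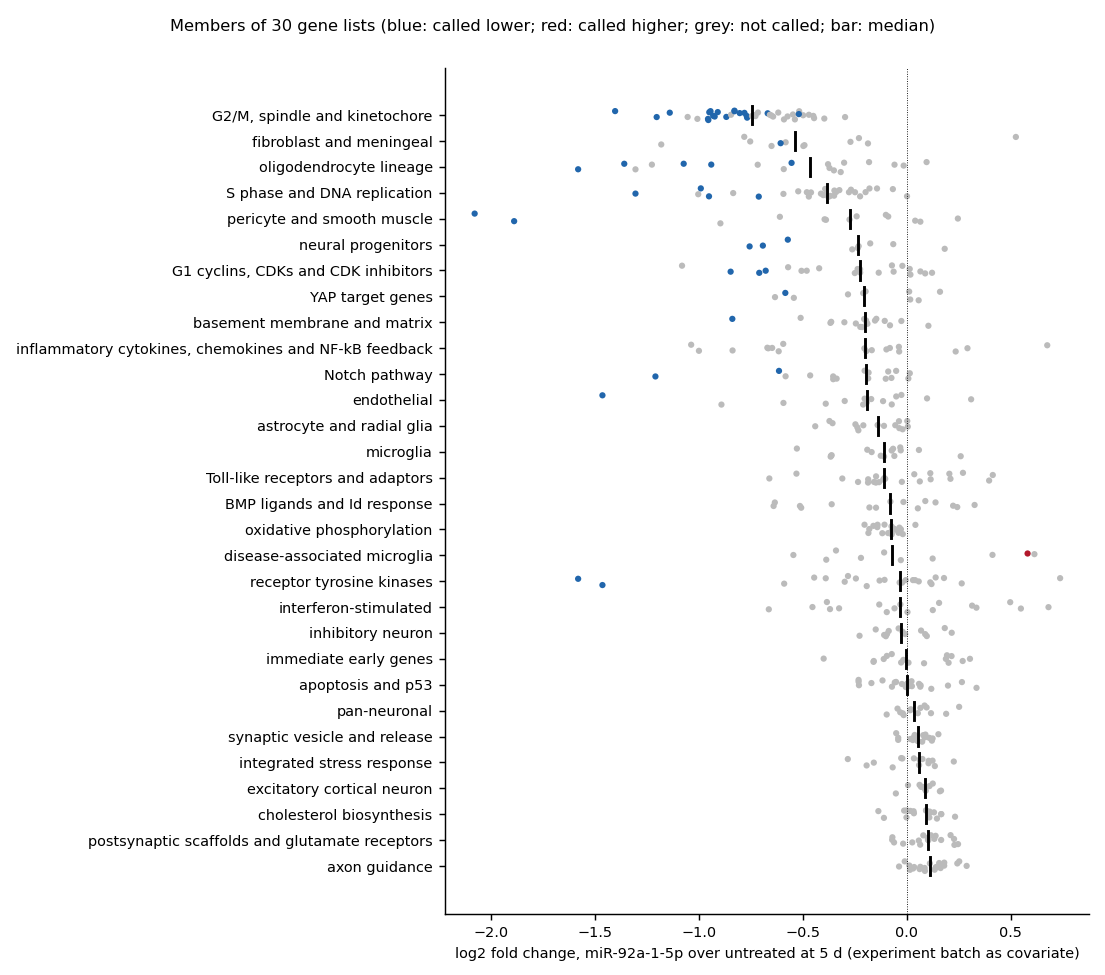
Log2 fold change of miR-92a-1-5p over untreated at 5 d with batch covariate (horizontal axis) for each tested member of 30 gene lists (vertical axis, ordered by median, bars); blue points are called lower, red called higher, grey not called. The G2/M list has the lowest median (-0.74) and the axon guidance list the highest (0.11).

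The promoters of the called genes were searched for 3 short motifs known from cell cycle promoters: the CCAAT box, the cell cycle homology region (TTTGAA), and the E2F site (TTTGGCGC or TTTCGCGC), each on both strands in the 300 bases from 250 before to 50 after the annotated start in RefSeq (GRCm38.p6). Of the 19 downregulated G2/M genes, 14 matched the promoter table, of which 12 held a CCAAT box, 11 held TTTGAA, and 1 held the E2F site. Among all 27025 genes with a promoter in the table, 41.1% held CCAAT, 20.2% held TTTGAA, and 0.929% held the E2F site. Both CCAAT and TTTGAA were present in 78.6% of the 14 promoters and in 7.97% of all promoters. Of the 67 downregulated genes, 49 matched the table, and 57.1% of these held CCAAT, 40.8% TTTGAA, 10.2% the E2F site, and 32.65% both CCAAT and TTTGAA. Among the 13311 genes tested at 5 d that matched, the shares were 42.3%, 14.8%, 1.59%, and 6.05% in the same order. Of the 35 promoters of the whole G2/M list, called or not, 60.0% held both. In the S phase list, 9 of 23 promoters held the E2F site and 3 held TTTGAA. A match describes the letters of the window and not the binding of a factor. The promoters of Top2a, Kif23, and Mcm5 are shown as examples of these 2 lists, with CCAAT (or ATTGG on the shown strand), TTTGAA (or TTCAAA), and E2F letters in capitals. Top2a lies at chr11:99024140-99024439 (minus strand), Kif23 at chr9:61946750-61947049 (minus strand), and Mcm5 at chr8:75109259-75109558 (plus strand).
Top2a: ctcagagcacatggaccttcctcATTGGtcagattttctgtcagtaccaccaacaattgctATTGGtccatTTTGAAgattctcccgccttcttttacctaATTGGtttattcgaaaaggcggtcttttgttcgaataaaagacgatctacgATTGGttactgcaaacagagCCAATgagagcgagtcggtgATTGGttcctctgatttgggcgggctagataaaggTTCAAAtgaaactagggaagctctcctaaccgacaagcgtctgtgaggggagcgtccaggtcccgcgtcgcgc
Kif23: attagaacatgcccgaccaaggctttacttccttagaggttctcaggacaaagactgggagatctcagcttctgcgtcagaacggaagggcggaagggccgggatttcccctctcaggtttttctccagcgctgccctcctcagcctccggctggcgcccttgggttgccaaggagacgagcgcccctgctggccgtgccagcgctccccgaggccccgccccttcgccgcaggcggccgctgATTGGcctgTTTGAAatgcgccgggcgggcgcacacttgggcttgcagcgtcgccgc
Mcm5: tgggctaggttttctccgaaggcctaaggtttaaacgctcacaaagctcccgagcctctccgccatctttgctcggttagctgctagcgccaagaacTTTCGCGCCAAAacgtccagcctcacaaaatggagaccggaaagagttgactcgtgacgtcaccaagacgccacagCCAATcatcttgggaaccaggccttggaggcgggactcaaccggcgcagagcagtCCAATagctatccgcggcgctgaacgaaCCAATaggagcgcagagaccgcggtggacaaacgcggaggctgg

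In the Top2a window, 6 matches to the CCAAT box and 2 to TTTGAA were found, and in the Kif23 window 1 of each. The Mcm5 window held 3 CCAAT boxes and an E2F sequence that was read on both strands, where TTTCGCGC and the complement of TTTGGCGC overlap.

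Several genes of vessels and connective tissue were downregulated singly. Kdr encodes the receptor VEGFR2 for vascular endothelial growth factor. It was at 8.82, 3.78, 5.90, and 5.17 CPM in untreated replicates 1 to 4 and at 2.81, 2.83, 2.27, and 1.80 CPM in miR-92a-1-5p replicates 1 to 4. The groups did not overlap, and replicate 1 of the exposed group was not set apart for this gene. The log2 fold change was -1.46 ± 0.12 with batch covariate (SE, adjusted p = 0.000192, edgeR) and -1.26 ± 0.23 without (adjusted p = 0.198). Kdr was the only 1 of 15 tested endothelial markers that was called, and the median of this list was -0.19.

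The contractile genes of smooth muscle and pericytes, Tagln (-1.89 ± 0.23, adjusted p = 0.0045, edgeR) and Acta2 (-2.08 ± 0.36, adjusted p = 0.0285, edgeR), had the most negative log2 fold changes among the called genes. Their levels were low and uneven. Tagln was at 5.70, 1.21, 1.33, and 1.82 CPM in the untreated and at 1.78, 1.57, 0.763, and 0.557 CPM in the exposed libraries, and Acta2 at 3.48, 0.925, 0.879, and 1.07 CPM and at 0.840, 1.03, 0.351, and 0.267 CPM. The groups overlapped for both genes, and untreated replicate 1 (batch 3) was far above the other untreated libraries. Neither gene was called without this library, and Acta2 was also lost without untreated replicate 2 or miR-92a-1-5p replicate 3 or 4. The other 11 tested members of the pericyte and smooth muscle list did not pass.

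Of 18 basement membrane and matrix genes, 1 was downregulated, namely Col4a6, a chain of collagen IV. It was at 3.48 to 6.37 CPM untreated and 2.23 to 3.60 CPM exposed (-0.84 ± 0.09, adjusted p = 0.00204, edgeR), with overlap between the groups. Sparc, a secreted matrix protein, passed the adjusted p but not the fold threshold (-0.36 ± 0.07, adjusted p = 0.0348, edgeR). Igf2, the insulin-like growth factor made by meningeal and vascular cells, was the only called gene of 12 fibroblast and meningeal markers. It was at 38.0, 20.01, 21.9, and 34.3 CPM in the untreated and at 12.7, 24.6, 30.1, and 23.4 CPM in the exposed libraries, so that the groups overlapped broadly, yet its log2 fold change in the batch fit was -0.61 ± 0.08 (adjusted p = 0.00525, edgeR). Col3a1 (-0.75 ± 0.15, adjusted p = 0.0575) and Slc6a13 (-1.18 ± 0.24, adjusted p = 0.0535) of the same list fell short of the threshold, and the median of its 12 members was -0.54. Of the YAP target genes, 1 of 10 tested was called, Ccn1, a matricellular protein (-0.58 ± 0.10, adjusted p = 0.0222, edgeR). Without untreated replicate 1, neither Igf2 nor Ccn1 was called.

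Markers of neural progenitors and Notch genes were among the downregulated genes as well. Nes, encoding the intermediate filament nestin, was at 70.1, 52.9, 59.9, and 62.4 CPM in the untreated and at 51.6, 47.0, 40.2, and 41.5 CPM in the exposed libraries (-0.57 ± 0.07, adjusted p = 0.0045, edgeR). The lowest untreated and the highest exposed library were close to each other, without overlap. Of 9 tested progenitor genes, 3 were downregulated, Nes and Gadd45g among them, and 0 were without untreated replicate 1. Gadd45g, a growth arrest and stress gene, was at 5.09 to 12.5 CPM untreated and at 4.95 to 8.37 CPM exposed (-0.69 ± 0.13, adjusted p = 0.0411, edgeR), and its groups overlapped. Of 16 Notch pathway genes, Lfng (-0.61 ± 0.09) and Mfng (-1.21 ± 0.22), encoding Fringe glycosyltransferases that modify Notch receptors, were downregulated, and neither was called without untreated replicate 1. The Notch ligand gene Dll1 passed the adjusted p alone (-0.35 ± 0.06, adjusted p = 0.0294, edgeR).

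Among genes in no list, Ets1, a transcription factor of endothelial, lymphoid, and other cells, had one of the most even differences. It was at 6.52, 7.20, 6.96, and 7.09 CPM in the untreated and at 4.41, 3.46, 3.63, and 4.23 CPM in the exposed libraries. No library of one group came near the other group. The log2 fold change was -0.76 ± 0.10 with batch covariate (SE, adjusted p = 0.0045, edgeR) and -0.80 ± 0.12 without (adjusted p = 0.0561). Tspan11, a tetraspanin, was downregulated in the batch fit (-1.02 ± 0.14, adjusted p = 0.00525, edgeR), with overlapping groups.

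Of 23 receptor tyrosine kinases, Kdr and Pdgfra were the 2 called, and none of 15 genes of BMP ligands and the Id response was called, Bmp7 being at 7.98 to 10.12 CPM untreated and 5.05 to 7.01 CPM exposed without overlap (-0.51 ± 0.12, adjusted p = 0.0862, edgeR). None of 15 astrocyte and radial glia genes was called. Their median was -0.14, and the members with the smallest p were Aldh1l1, a folate enzyme of astrocytes, with 85.2 to 116 CPM untreated and 70.4 to 81.5 CPM exposed (-0.37 ± 0.09, adjusted p = 0.0897), and Vim, the filament protein vimentin (-0.44 ± 0.10, adjusted p = 0.0897).

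Spp1, encoding the secreted phosphoprotein osteopontin, was the only upregulated gene. It was at 10.3, 3.28, 3.48, and 6.43 CPM in untreated replicates 1 to 4 and at 2.86, 12.5, 12.9, and 11.8 CPM in miR-92a-1-5p replicates 1 to 4. Replicate 1 of the exposed group was the lowest of all 8 libraries, and the others were the highest. Within the shared batches Spp1 was higher by 0.28 in batch 3 and by 0.87 in batch 12 on the log2 scale. The log2 fold change in the batch fit was 0.58 ± 0.11 (SE, adjusted p = 0.0467, edgeR). The call was lost when any 1 of untreated replicates 1, 2, and 4 or of miR-92a-1-5p replicates 3 and 4 was left out. Of the other 9 tested genes of disease-associated microglia, none was called.

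No neuronal or synaptic list held a called gene. The median log2 fold change in the batch fit was 0.04 over 14 pan-neuronal genes, 0.09 over 11 genes of excitatory cortical neurons, -0.03 over 14 genes of inhibitory neurons, 0.05 over 17 synaptic vesicle genes, 0.10 over 19 postsynaptic genes, and 0.11 over 21 axon guidance genes. Dcx, the microtubule protein doublecortin of young neurons, was at 1497 to 2014 CPM in the untreated and 1769 to 2060 CPM in the exposed libraries (0.25 ± 0.11, adjusted p = 0.451). Nefl, the light chain of neurofilament, was at 83.5 to 93.0 and 91.5 to 99.8 CPM (0.12 ± 0.06, adjusted p = 0.491). Gria1, an AMPA receptor subunit, was at 473 to 493 and 463 to 510 CPM (0.10 ± 0.04, adjusted p = 0.432). These levels overlapped between the groups for each of the 3 genes.

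The lists of apoptosis and p53 targets (23 genes), the integrated stress response (15 genes), immediate early genes (16 genes), cholesterol biosynthesis (19 genes), and oxidative phosphorylation (21 genes) held no called gene in either fit either. Their medians in the batch fit were 0.00, 0.06, -0.00, 0.09, and -0.07. Chac1, a glutathione-degrading enzyme induced by the stress response, had 30.4 to 54.4 CPM untreated and 53.1 to 60.6 CPM exposed (0.23 ± 0.05, adjusted p = 0.104). Pmaip1, a proapoptotic p53 target, had 10.3 to 11.6 and 10.3 to 15.3 CPM (0.27 ± 0.08, adjusted p = 0.207). Fdft1, the squalene synthase, had 152 to 247 and 183 to 269 CPM (0.23 ± 0.06, adjusted p = 0.128). All 3 groups of values overlapped between conditions.

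The RNA-sensing pathway itself was not called at 5 d. Tlr7 was at 1.19, 0.865, 1.52, and 1.02 CPM in the untreated libraries and at 1.31, 0.786, 1.34, and 1.49 CPM in the exposed libraries, which overlapped (0.21 ± 0.25, adjusted p = 0.779, edgeR). Its adaptor gene Myd88 was at 3.78 to 5.66 and 4.03 to 5.30 CPM (-0.11 ± 0.13, adjusted p = 0.766). None of 23 Toll-like receptor and adaptor genes, 18 inflammatory genes, and 17 interferon-stimulated genes was called, and their medians were -0.11, -0.20, and -0.03. The cytokine genes were close to the floor of detection, with 1 to 12 counts for Il1a in untreated libraries and 3 to 7 in exposed ones, and 2 to 9 and 0 to 13 counts for Tnf. Neither gene passed the test, with log2 fold changes of 0.68 ± 0.77 for Il1a and -0.67 ± 0.78 for Tnf (adjusted p = 0.762 and 0.772, edgeR). The chemokine genes Ccl2, with 31 to 280 counts untreated and 36 to 89 exposed (-1.04 ± 0.21, adjusted p = 0.0575), Cxcl1 (-0.65 ± 0.21, adjusted p = 0.277), and Cxcl2 (-0.67 ± 0.26, adjusted p = 0.384) had negative values that did not pass. The interferon-stimulated gene Isg15 was at 0.182 to 0.202 CPM in the untreated and 0.210 to 0.455 CPM in the exposed libraries, without overlap. These levels rested on few reads, with 10 to 12 counts untreated and 8 to 22 counts exposed, and the counts did overlap. Isg15 did not pass the test (0.68 ± 0.42, adjusted p = 0.586, edgeR). The microglial genes Cx3cr1 (-0.53 ± 0.17, adjusted p = 0.261) and Aif1 (-0.36 ± 0.21, adjusted p = 0.559) did not pass, and none of 15 tested microglial genes was called.

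Since the seed of miR-92a-1-5p pairs with CCCAACC, the longest annotated 3′ UTR of each gene (protein-coding transcripts of the GENCODE M21 basic set) was searched for this sequence. Genes with matches did not stand lower than genes without. The median log2 fold change in the batch fit was -0.01 over 13949 genes without a match, 0.01 over 1363 genes with 1 match, and 0.03 over 218 genes with 2 or more. The middle range, from the 25th to the 75th percentile, was -0.12 to 0.09 without a match and -0.06 to 0.11 with 2 or more. Called lower were 0.430% of the genes without a match, 0.514% of those with 1 match, and none of those with 2 or more. Genes with matches had longer 3′ UTRs, with a median of 1054 bases without a match and 2829 bases with 2 or more. Of the 67 downregulated genes, 7 held 1 match each. Those of Ccnd1 and Igf2, which are among the 3 with the smallest p, are shown with the matching letters in capitals, within 30 bases of the 3′ UTR each.
Ccnd1: tgcttgactttCCCAACCcaattggcccca
Igf2: gcccggtgctcCCCAACCacccccgccatg

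The match in Igf2 is followed by an A, which extends it to the 8-base form, while the one in Ccnd1 is not. In the batch fit against the same untreated libraries, Ccnd1 was also called lower for Mut.oligo (-0.52 ± 0.07, adjusted p = 0.0254, edgeR), while for miR-124-5p it was not called (-0.45 ± 0.08, adjusted p = 0.0836, edgeR).

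The 2 batches that hold both groups gave each gene 1 difference per batch. All 67 downregulated genes were lower in both batches, and 59 of them by more than 0.5 on the log2 scale in both. Over all genes, 3.78% were lower by this much in both batches and 1.7% were higher. These 4 libraries also enter the fit, so that the counts describe the same data. Olig2 was lower by 1.21 in batch 3 and by 1.07 in batch 12, Kdr by 1.63 and 1.51, Pdgfra by 2.01 and 1.59, and Ccnd1 by 0.64 and 0.71. Differences were thus of similar size in the 2 batches for these 4 genes.

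**Figure D4:**
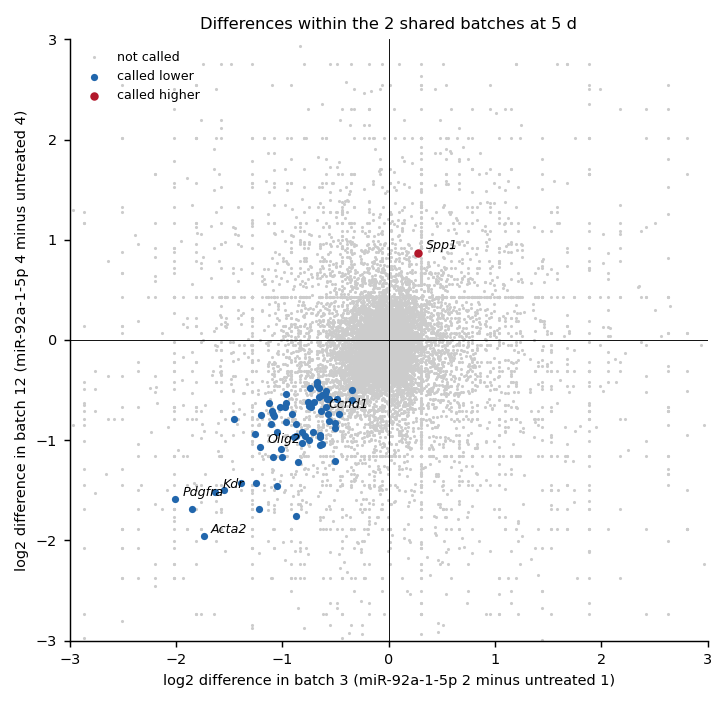
Log2 difference between the miR-92a-1-5p and the untreated library in batch 3 (horizontal axis) and in batch 12 (vertical axis), each point a gene (0.5 counts added); 274 genes lie outside the plotted range. All genes called lower (blue) are in the lower left quadrant, and Spp1 (red) is in the upper right.

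The exposed library of batch 2, miR-92a-1-5p replicate 1, stood nearer to the untreated level than the other three. Over the 67 downregulated genes, the median log2 ratio to the mean of the untreated libraries was -0.27 in replicate 1, -0.79 in replicate 2, -0.98 in replicate 3, and -0.88 in replicate 4. It was the highest of the 4 exposed libraries in 57 of the 67 genes and in 36.5% of all genes tested. The miR-124-5p library of batch 2 had a median ratio of 0.04, against -0.69 to -0.53 in the other miR-124-5p libraries. With no untreated library in batch 2, the level of the batch and a weaker difference in it cannot be told apart. The batch covariate estimates the level of batch 2 from these 2 exposed libraries alone.

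**Figure D5:**
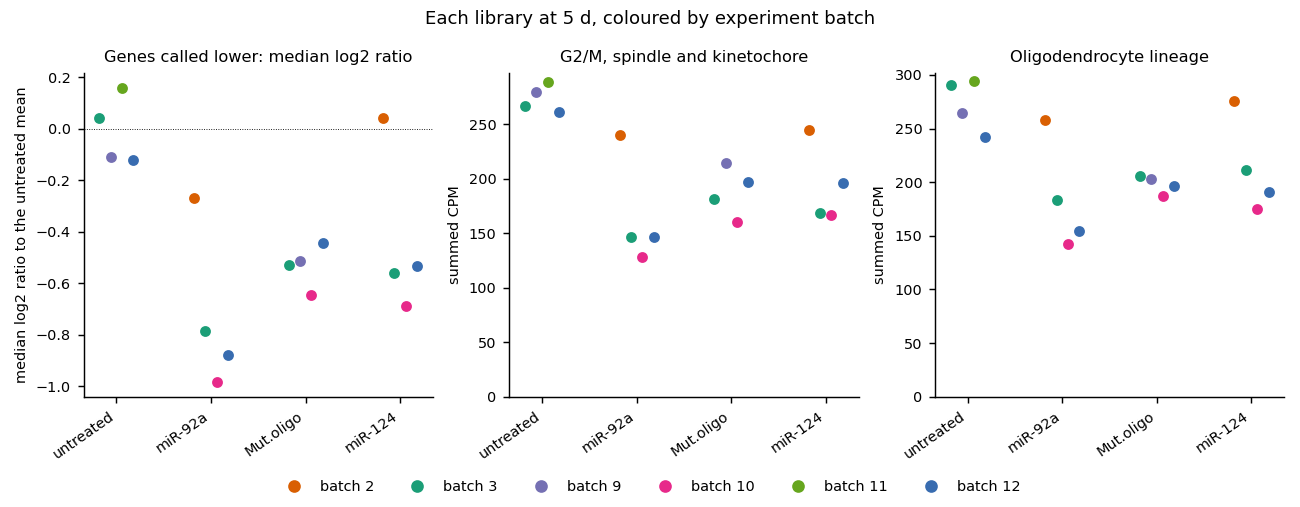
For each of the 16 libraries of 5 d, by condition (horizontal axis) and coloured by batch: the median log2 ratio of the 67 downregulated genes to the mean of the untreated libraries (left; an untreated library is set against the other three), and the summed CPM of the G2/M list (middle) and the oligodendrocyte lineage list (right). In batch 2, the libraries of both microRNAs lie above the other libraries of their condition in each panel.

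The other oligoribonucleotides were set beside miR-92a-1-5p to see whether the differences were particular to its sequence. All 3 conditions share the untreated libraries, so their values against untreated are not independent, and the 67 genes were chosen for low values in the miR-92a-1-5p libraries, so that a larger difference in this condition is set by the choice. The median log2 fold change of the 67 genes was -0.80 for miR-92a-1-5p, -0.44 for Mut.oligo, and -0.48 for miR-124-5p, and 9 and 5 of the 67 genes were called lower for the latter 2, where 0.0466% and 0.0259% of all genes tested were called lower. Over all tested members of the G2/M list, called or not, the median was -0.74 for miR-92a-1-5p, -0.44 for Mut.oligo, and -0.53 for miR-124-5p. For the oligodendrocyte lineage list it was -0.47, -0.40, and -0.34 in the same order. Compared directly with Mut.oligo, 2 genes were lower in the miR-92a-1-5p condition (0.0103% of the genes tested) and none was upregulated. These were Olig2 (-0.62 ± 0.07, adjusted p = 0.0180, edgeR with batch covariate) and Gdf15, a stress-induced member of the TGF-β family (-0.85 ± 0.10, adjusted p = 0.0232). Olig2 was at 20.4, 21.8, 19.3, and 21.7 CPM in the Mut.oligo libraries, and miR-92a-1-5p replicate 1, at 23.4 CPM, was above all of them. That replicate came from batch 2, which holds no Mut.oligo library. In each batch that holds both conditions the miR-92a-1-5p library was lower (14.1 against 20.4, 11.9 against 19.3, and 12.8 against 21.7 CPM). Gdf15 was at 0.905 to 3.16 CPM in untreated, 1.18 to 2.05 CPM in miR-92a-1-5p, and 1.03 to 3.67 CPM in Mut.oligo libraries, which overlapped throughout. Within the batches that hold both oligoribonucleotides it was at 1.18 against 2.20, 1.84 against 3.67, and 2.05 against 3.40 CPM, lower with miR-92a-1-5p in each.

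Compared with miR-124-5p, whose libraries came from the same 4 batches, 2 genes were downregulated (0.0103%) and none was upregulated, namely Olig2 (-0.55 ± 0.07, adjusted p = 0.0157, edgeR) and Igf2 (-0.58 ± 0.07, adjusted p = 0.0157). Olig2 was at 31.97, 21.04, 18.1, and 19.7 CPM in miR-124-5p replicates 1 to 4 and lower in the miR-92a-1-5p library of each of the 4 batches. Igf2 was at 20.3, 33.2, 45.7, and 37.5 CPM and was likewise lower in each batch. For Kdr and Pdgfra the difference from Mut.oligo was -0.09 ± 0.11 and -0.11 ± 0.14, and neither passed (adjusted p = 0.782 and 0.777). For Ccnd1 it was -0.16 ± 0.07 (adjusted p = 0.560). Without the batch covariate, neither comparison had a called gene. Leaving out 1 library at a time gave 0 to 13 genes against Mut.oligo and 0 to 10 against miR-124-5p. The most were called without miR-92a-1-5p replicate 1 in both. Against miR-124-5p, equally many were called without miR-124-5p replicate 1. This is set by the design, since either omission leaves 1 library alone in batch 2, which then adds nothing to the contrast.

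At 6 h of exposure, in other experiment batches, the 67 genes were near the untreated level. Their log2 fold changes ranged from -0.37 to 0.44 with a median of -0.01, and none was called lower. Kdr had -0.37 ± 0.11, Ccnd1 -0.20 ± 0.11, Olig2 -0.01 ± 0.14, and Pdgfra 0.12 ± 0.09 at 6 h. The cytokine genes Il1a (1.59 ± 0.27, adjusted p = 0.0111, edgeR) and Tnf (1.02 ± 0.18, adjusted p = 0.0154) passed the threshold at 6 h. Cxcl2 fell just short of it (1.28 ± 0.29, adjusted p = 0.0503). The difference between the 2 times was not tested.

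The genes nearest to the threshold in the batch fit were Knstrn and Iqgap3 (both adjusted p = 0.0467) and Birc5 (adjusted p = 0.0491) on the inside, and BC030867 (adjusted p = 0.0504), Chd7, and Slc6a13 (both adjusted p = 0.0535) on the outside. Pdgfra, Top2a, Spp1, Igf2, Foxm1, Aldh1l1, and Col3a1 share exonic bases on the same strand with another annotated gene, and reads in the shared stretch could have been left uncounted.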

How the data were processed

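Messenger RNA of cultured cortical neurons was sequenced from stranded libraries. The authors mapped the reads to GRCm38 with STAR, counted them on the exons of each gene with featureCounts of the Subread package with regard to strand, and deposited the raw counts of 49671 genes in 32 libraries without normalization. Of the gene identifiers, 49412 had an entry in GENCODE M21 of the same build, and the others were used by identifier only. Every column was assigned to a sample by its label, and each sample to its group by title, treatment, and time.

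The fit took the genes that reached 5 counts in 3 or more of the 16 libraries of 5 d, and used edgeR 4.0.16 under R 4.3.3 (TMM, quasi-likelihood, all 4 groups sharing 1 estimate of the spread), without covariate and with the experiment batch as covariate. The standard error is the log2 fold change divided by the square root of F. The same fit was made for 6 h. The functions were tested on simulated data. No libraries were alike (chi-square per degree of freedom between 7.87 and 89.4 in 12 replicate pairs).

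The comparison, the gene lists, and the motifs were chosen with earlier results of these data known, so that lists are described by counts and medians without a test, and the list that the study itself drew up on these samples (26 genes, 23 called lower and 1 higher in the batch fit) is not independent evidence. Genes were named by a fixed rule: those called without covariate, the 20 called lower and up to 10 called higher with the smallest p in the batch fit, up to 3 per list, 5 receptor and response genes, up to 3 called genes with seed matches, and those called against the other oligoribonucleotides. Levels in CPM use library totals. Some genes and sequences are not reported here. Alternatives were DESeq2 1.42.0, limma 3.58.1 (voom, batch as random effect), another normalization, other filters, subsets of libraries, and leaving out each library.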

Additional observations from a re-analysis of the deposited data

Results flagged for a closer look

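In 9 of 122 groups of 4 libraries looked at, 1 library lay far from the rest. Chance alone would give about 1 in 20 if the groups were independent. They share the same libraries, and Sox10 and Mki67 were named after their values were seen, so this rate does not apply here. miR-92a-1-5p replicate 1 was the highest of its group for Pdgfra (31.2 CPM against 6.81 to 8.15 CPM), Sox10 (3.88 against 0.757 to 1.14 CPM), Mki67 (23.2 against 8.36 to 10.3 CPM), Kif23 (3.86 against 2.32 to 2.54 CPM), and Mcm5 (8.35 against 5.55 to 5.77 CPM), and the lowest for Spp1 (2.86 against 11.8 to 12.9 CPM). Untreated replicate 1 was the highest of its group for Tagln (5.70 against 1.21 to 1.82 CPM) and Acta2 (3.48 against 0.879 to 1.07 CPM), and untreated replicate 2 for Foxm1 (9.37 against 8.31 to 8.41 CPM). The part of batch 2 in the first 6 of these was not tested.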

How the results depend on the processing

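The counts of called genes moved with the processing, and the cause was not tested. Without covariate, the 1 gene called lower became 4 without the filter on low counts, 2 when every library had to hold 10 counts or more, 29 with DESeq2, 23 with limma voom and the batch as a random effect, 67 with the batch covariate (and 1 higher), and 0 with only the 2 groups fitted. Untreated and miR-92a-1-5p libraries of the same number share a batch only for replicate 4, and the correlation of deviations from the group means in same-numbered pairs was -0.215 to 0.173; with the replicate block, 3 genes were called lower. Leaving out 1 library gave 0 to 27 genes lower. In the batch fit, 125 genes were lower without the filter and 115 with DESeq2 (67 and 66 of them shared with the 67), and the 1 gene higher became 3, 3, 2 (only the 2 groups), and 6 (no minimum fold); leaving out 1 library gave 8 to 132 lower and 0 to 4 higher. Against Mut.oligo, 10 genes were lower without the filter, 11 with DESeq2, and 0 without covariate, and 2 were higher without the filter and 2 with DESeq2; leaving out 1 library gave 0 to 13 lower and 0 to 1 higher. Against miR-124-5p, 10 were lower without the filter, 10 with DESeq2, and 0 without covariate; leaving out 1 library gave 0 to 10 lower and 0 to 1 higher. Of 960 values of the single genes named here under these alternatives, 2 changed sign, none of a called gene, namely Tlr7 (-0.00111) and Il1a (-0.02618) without untreated replicate 4. Over all fits that left out 1 library, Tlr7 ranged from -0.00111 to 0.4931 and Il1a from -0.02618 to 1.068. Depth limits the cytokine genes, with at most 13 counts for Il1a and Tnf in any of the 8 libraries.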
